A study of Mus musculus with 2 samples.

Results

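Transcripts of the replication-dependent histone genes were examined in single cells of mouse hearts at E12.5, a midgestation stage. The genes were chosen by symbol, as those beginning with Hist1h, Hist2h, Hist3h or Hist4, and by a minimum of 10 unique molecular identifiers (UMIs, each one captured RNA molecule) over the kept cells of both libraries. Of 67 genes with these symbols, 58 met the minimum, out of 31053 genes listed and 15257 genes with at least 10 UMIs. The 58 members comprised 5 genes of linker histone H1, 16 of H2A, 16 of H2B, 10 of H3 and 11 of H4. Just above the minimum lay Hist1h2ah with 11 UMIs and Hist2h3c1 and Hist1h2ao with 12 each, and just below it Hist1h1t with 9 and Hist1h4b and Hist2h3c2 with 8 each.

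The control heart library carried Tbx18-Cre; YFP/+ and the mutant library Tbx18-Cre; Prmt1 fl/fl;YFP/+, so both shared the Cre driver and the YFP reporter allele and differed in the floxed Prmt1 alleles. Tbx18-Cre is known for its activity in the epicardium (the sheet of cells covering the heart) and in cells that come from it, and the submitters call the deletion epicardial-specific. How many embryos went into each library, and whether cells were sorted, is not given in the sources used here. There was 1 library per genotype. Differences between genotypes therefore carry no test and no check against replicates, and every interval given is a 95% interval for counting error only.

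Replication-dependent histones package newly made DNA, and their genes are switched on as cells enter S phase, the part of the cell cycle in which DNA is copied. Their mRNAs are unusual in metazoans: most end in a short conserved stem-loop, bound by the stem-loop binding protein Slbp, and carry no poly(A) tail. Droplet kits of the 10x Chromium kind prime on poly(A). H2A, H2B, H3 and H4 form the nucleosome core and H1 binds the DNA that links nucleosomes.

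The sequence near the transcript end is shown first because it sets these genes apart. In the GENCODE M21 transcripts (GRCm38), 41 of the 58 members held the stem-loop, searched as a stem of 6 base pairs that begins with GG and closes on a loop of 4 bases. The 41 members used 8 versions of its 16 letters. The most frequent one was found in 24 members of types H1, H2A, H2B and H3, and the next in 6 members, all H4. These are shown in capitals for 1 member of each type and for Hist2h2ac, a member described below whose letters no other member had:
Hist1h1e: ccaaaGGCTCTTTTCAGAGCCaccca
Hist1h2ae: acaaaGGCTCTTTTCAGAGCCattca
Hist1h2bj: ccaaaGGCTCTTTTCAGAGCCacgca
Hist1h3e: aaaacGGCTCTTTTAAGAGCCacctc
Hist1h4d: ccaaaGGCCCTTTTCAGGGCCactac
Hist2h2ac: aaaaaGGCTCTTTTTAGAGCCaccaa
All 6 lie in the annotated transcript on GRCm38, at chr13:23621782-23621797 for Hist1h1e, chr13:23570668-23570683 for Hist1h2ae, chr13:22043638-22043653 for Hist1h2bj, chr13:23561903-23561918 for Hist1h3e, chr13:23581950-23581965 for Hist1h4d and chr3:96220418-96220433 for Hist2h2ac. The remaining 17 members had no match, which says only that these letters are not in their annotated transcripts.

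A run of at least 8 adenines stood in the annotated transcripts of 7 members, which together held 54.4% of all member UMIs. Most of these UMIs came from Hist1h2ap, Hist1h2ae and Hist1h2bc. A run past an annotated end could not be seen, as in Hist1h2an with 393 annotated bases. The share of all transcripts with such a run was not counted. In Hist1h2ap and Hist1h2ao, both H2A genes, a run of 12 adenines ended directly at the stem-loop, and in Hist1h2ae, also H2A, a run of 8 ended 4 bases before it. The 30 bases around each run, with the run in capitals, are shown because these 3 genes include both leading members:
Hist1h2ap: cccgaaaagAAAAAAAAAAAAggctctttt
Hist1h2ae: tctaatctcgtAAAAAAAAcaaaggctctt
Hist1h2ao: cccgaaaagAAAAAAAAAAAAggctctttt
The windows lie at chr13:21833036-21833065 for Hist1h2ap and chr13:23570677-23570706 for Hist1h2ae, both on the minus strand, and at chr13:21810877-21810906 on the plus strand for Hist1h2ao. Hist1h2ap had 19381 UMIs and Hist1h2ao, with the same 30 letters, had 12. Their transcripts were identical at 88.6% of aligned positions, and only 6.93% and 6.5% of their 50-base stretches occurred in no other transcript, so the division of UMIs between these copies is uncertain. The other runs of at least 8 adenines, in Hist1h2bc, Hist1h1d, Hist1h2ac and Hist1h2be, were not next to a stem-loop, and these genes had 5127, 564, 154 and 101 UMIs.

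A few genes supplied most of the molecules. Hist1h2ap gave 25.5% of member UMIs, Hist1h2ae 21.1% and the linker histone gene Hist1h1b 13.9%, and the 15 members with the most UMIs gave 90.7%. H2A genes held 53.3% of member UMIs, H1 genes 25.2%, H2B genes 12.6%, H4 genes 4.46% and H3 genes 4.39%, although the nucleosome holds the 4 core types in equal numbers. The Hist1 cluster on chromosome 13 held 95.6%. These are numbers of captured molecules and not levels per length.

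**Figure D1:**
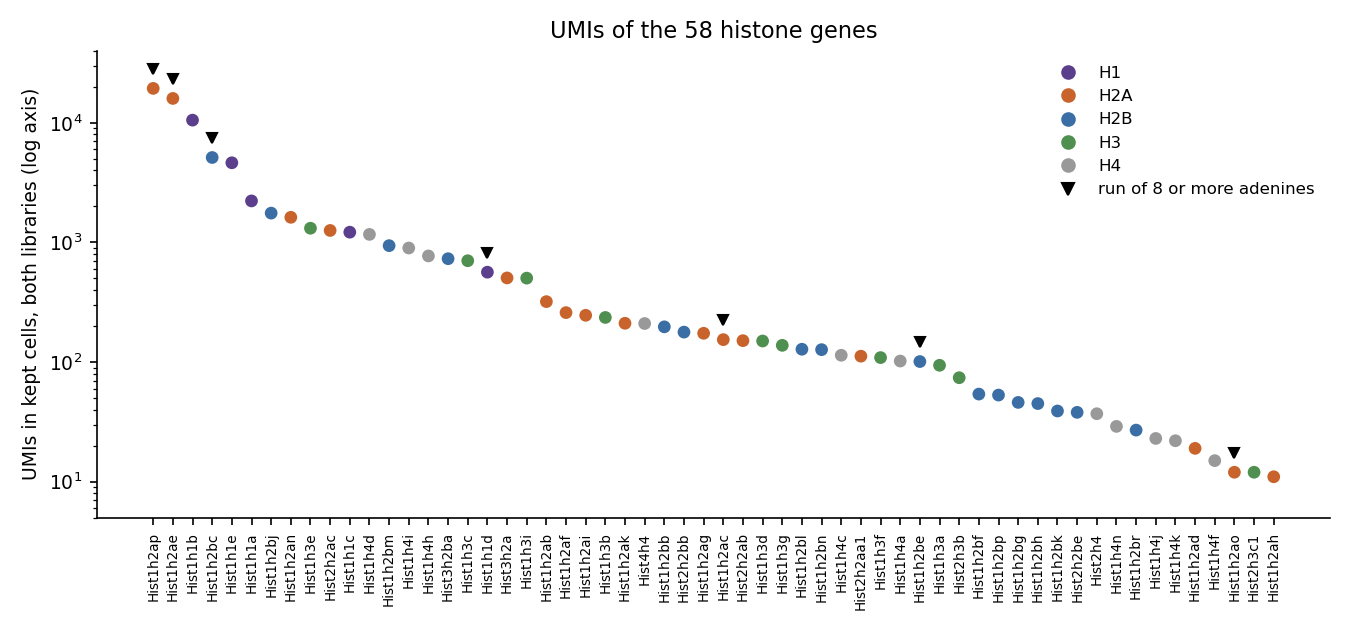
UMIs of each of the 58 members over the kept cells of both libraries, on a log axis, ordered from most to fewest and coloured by histone type; triangles mark members with a run of 8 or more adenines. Hist1h2ap and Hist1h2ae lead with 19381 and 15978 UMIs, and Hist1h2ao, which has the same run as Hist1h2ap, lies near the end with 12.

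Promoters were compared with RefSeq windows (GRCm38.p6) from 250 bases before to 50 after each start, matched for 61 of the 67 genes. Each motif was searched on both strands and anywhere in the window. The octamer ATTTGCAT was in 13 of them, 7 of 17 H2A and 6 of 16 H2B genes and none of the 6 H1, 10 H3 and 12 H4 genes. It was in 1.74% of all 32851 promoter windows. CCAAT was in every H1, H2A, H2B and H3 window but in 3 of 12 H4 windows, against 37.4% of all windows, and TATAAA in 35 of 61 against 13.6%. These searches did not use the measured levels, and windows of neighbouring H2A and H2B genes overlap, so 1 match can count for both.

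H2A and H2B genes often lie head to head, and 12 such pairs under 400 bases apart were found. The members of a pair could differ widely in UMIs. Hist1h2ae had 15978 UMIs and its partner Hist1h2bg 46, a ratio of 347, while the 175 bases at chr13:23571221-23571395 lie between their starts. The stretch is shown on the plus strand as the 1 sequence from which both genes start, with CCAAT in either orientation, the octamer and TATAAA in capitals:
Hist1h2ae and Hist1h2bg: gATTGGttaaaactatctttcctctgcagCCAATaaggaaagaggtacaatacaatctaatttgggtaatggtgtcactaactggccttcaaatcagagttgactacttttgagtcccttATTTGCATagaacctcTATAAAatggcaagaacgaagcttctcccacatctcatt
The octamer and TATAAA of this stretch read on the plus strand and lie nearer the start of Hist1h2bg, the gene with 46 UMIs. Hist1h2ap and Hist1h2br, 235 bases apart, had 19381 and 27 UMIs. In the pair of Hist1h2bc and Hist1h2ac the H2B gene had more, 5127 against 154. Hist1h2ai and Hist1h2bl were closer, with 246 and 128.

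Cells were kept at 1000 UMIs, 500 genes and at most 20% mitochondrial UMIs, which left 4100 control cells with a median of 5896.5 UMIs and 4640 mutant cells with a median of 4046. They held 43837799 and 44228380 UMIs, and 8 barcodes occurred in both libraries. Cells were assigned to classes by summed marker UMIs. Cardiomyocytes numbered 2048 in the control and 1602 in the mutant, mesenchymal cells 751 and 1283, epicardial cells 173 and 279, endothelial cells 231 and 284, macrophages 72 and 71 and erythroid cells 152 and 303. Prmt1, the targeted gene, measured 480.2 CPM in control and 378 CPM in mutant epicardial cells, where CPM is a gene's share of all UMIs of a class scaled to a fixed total, with a ratio of 0.786 (0.681 to 0.908). It was higher in the mutant in the other classes, with ratios of 1.08 (1.01 to 1.16) in mesenchymal cells, 1.18 (1.07 to 1.30) in endothelial cells, 1.18 (1.16 to 1.21) in cardiomyocytes, 1.71 (1.20 to 2.47) in macrophages and 1.83 (1.20 to 2.85) in erythroid cells. RNA free in droplets also carried histone transcripts. The 535033 control barcodes with at most 100 UMIs summed to 598 CPM (561 to 638) for all 67 genes with the histone symbols. The mutant matrix held no such barcodes, and the share of free RNA in kept cells was not tested.

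The first comparison was of histone transcripts between cell classes. In the control, the 58 members summed to 788 CPM in cardiomyocytes (interval 778 to 798), 928 CPM in epicardial cells (859 to 1002), 991 CPM in mesenchymal cells (946 to 1037) and 1045 CPM in endothelial cells (986 to 1106). Macrophages reached 737 CPM (633 to 853) and erythroid cells 160.2 CPM (144.0 to 178). In this order the intervals of macrophages and cardiomyocytes overlapped, as did those of epicardial with mesenchymal and of mesenchymal with endothelial cells. In the mutant the order was erythroid (409 CPM), cardiomyocyte (896), epicardial (988), mesenchymal (1315), endothelial (1483) and macrophage (1673), and only the intervals of the last pair overlapped. Erythroid totals were 82.1% globin in the control and 75.6% in the mutant, which lowers the CPM of every other gene there. With haemoglobin, mitochondrial and ribosomal genes left out of the totals, the 12 levels, erythroid included, lay between 949 and 2220 CPM. The low erythroid values above therefore hold only for totals that include globin.

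Within a class the transcripts were concentrated in a minority of cells. The median control cardiomyocyte stood at 196.7 CPM and the upper quartile at 923 CPM. In the 1997 control cardiomyocytes deep enough to be thinned to an equal number of UMIs, as for the S gate below, concentration was also counted. There the 10% of cells with the most histone UMIs held 47.9% of the thinned histone UMIs. Of these thinned cells 45.6% held any member UMI, against 76.8% of all control cardiomyocytes before thinning. The part of thinning in the 47.9% was not tested. Of control mesenchymal cells 47.3% had no member UMI, at a median depth of 1873 UMIs, and so did 23.2% of control cardiomyocytes at a median depth of 10615. In the mutant, 37.5% of endothelial histone UMIs came from 5 of 284 cells, in epicardial cells 39.9% came from 5 of 279, and in macrophages 49.6% came from 5 of 71. Without the 5 cells with the most histone UMIs in each class, the mutant order changed to erythroid (353 CPM), epicardial (630.5), cardiomyocyte (868), endothelial (1012), macrophage (1091) and mesenchymal (1177). In the control it changed to erythroid (141), macrophage (534), epicardial (640.5), cardiomyocyte (769.5), mesenchymal (917) and endothelial (979.9).

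Among the H2A members, Hist1h2ap stood in the control at 182 CPM in cardiomyocytes, 199.4 in epicardial, 174 in mesenchymal, 251 in endothelial, 99.3 in macrophage and 7.67 in erythroid cells. In the mutant it stood at 260.5, 261, 339, 480.2, 517 and 49.9 CPM in the same order, higher in each of the 6 classes. Hist1h2ae in the control was between 120.0 and 164 CPM in the 5 non-erythroid classes and between 176 and 264 CPM in the mutant, also higher in each class. Hist1h2an was lower, between 8.42 and 33.6 CPM over those 10 values. Hist2h2ac, from the Hist2 cluster on chromosome 3, was lower in the mutant in cardiomyocytes and mesenchymal cells and is described with the genotypes.

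The H1 genes differed in where they were high. Hist1h1b was similar in control cardiomyocytes (119 CPM) and mesenchymal cells (113 CPM). Hist1h1a, another linker histone gene, was at 17.0 CPM in control and 16.9 CPM in mutant cardiomyocytes but at 82.2 and 97.4 CPM in mesenchymal, 67.3 and 70.0 CPM in endothelial and 43.5 and 61.5 CPM in epicardial cells. Cardiomyocytes were thus the low class for Hist1h1a in both libraries among these 4. Hist1h1e lay between 47.3 and 128 CPM in the non-erythroid classes. Hist1h1c was the H1 gene with the most UMIs in control erythroid cells, at 20.3 CPM, against 9.88 CPM in control cardiomyocytes.

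Hist1h2bc led the H2B genes and had a pattern of its own among the leading members. It was at 48.6 and 32.4 CPM in control and mutant cardiomyocytes, 75.8 and 89.9 CPM in mesenchymal, 172 and 120 CPM in endothelial and 141 and 131 CPM in macrophage cells. In control erythroid cells it was at 36.1 CPM, the highest of the 15 leading members there, and H2B genes made up 37.5% of histone UMIs in that class against 12.53% in control cardiomyocytes. Hist1h2bj ranged from 13.5 to 56.8 CPM over the 12 class and library values and Hist1h2bm from 3.16 to 23.9 CPM. Of the H3 genes Hist1h3e was highest in mesenchymal cells, at 37.6 CPM in the control and 36.3 CPM in the mutant. The leading H4 genes, Hist1h4d, Hist1h4h and Hist1h4i, stayed at or below 33.1 CPM in every class. Hist1h4d had 0 UMIs in the 241581 UMIs of control macrophages, where a count of 0 allows up to 3.

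**Figure D2:**
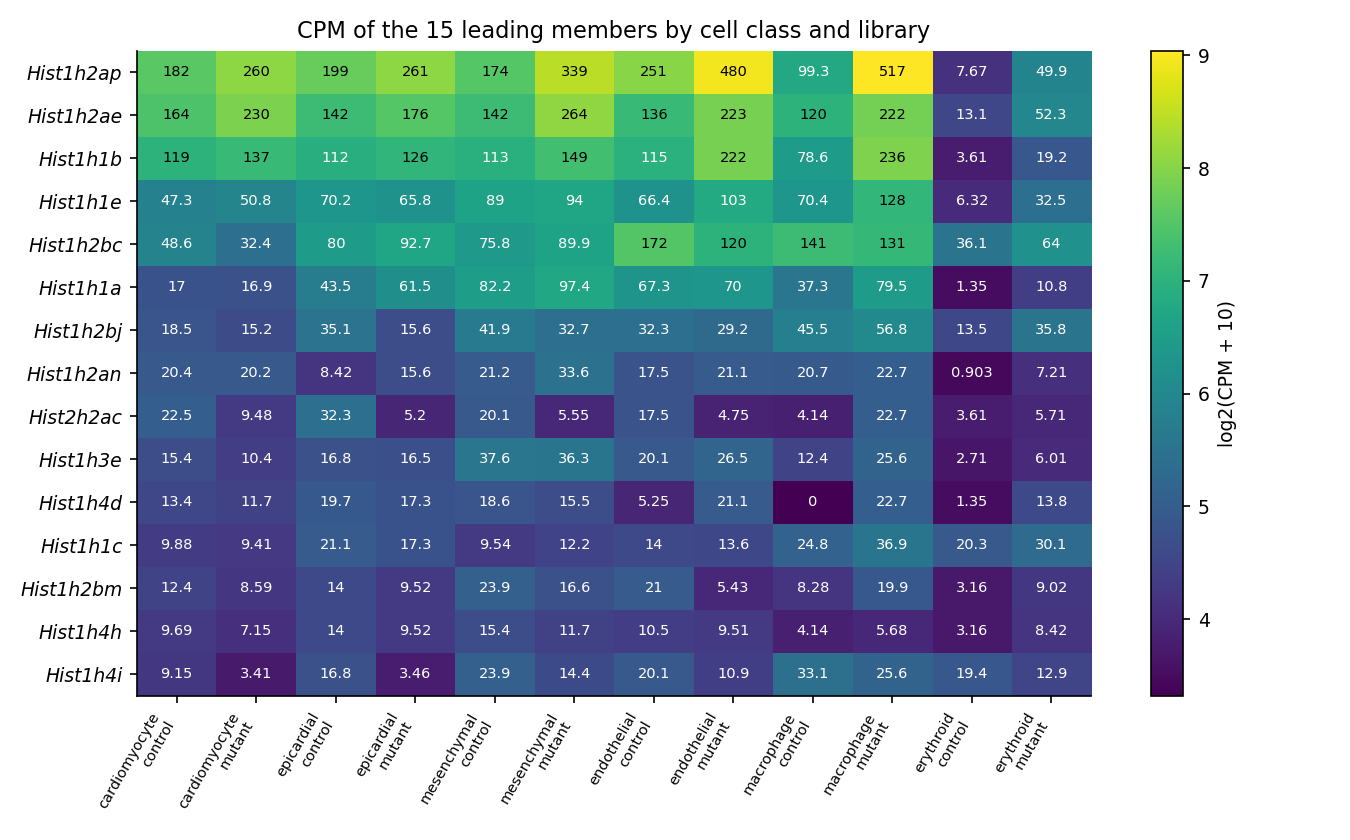
CPM of the 15 members with the most UMIs (rows) in 6 cell classes of each library (columns); the number in each field is the CPM and the colour is log2(CPM + 10). Hist1h2ap and Hist1h2ae are higher in the mutant column of every class, and Hist1h1a is low in cardiomyocytes.

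The second comparison was with S phase. A cell passed the S gate if it held at least 2 UMIs of Pcna, the replication clamp, and the helicase genes Mcm2 to Mcm7 and Mcm10 after each cell was thinned to 2000 UMIs. The cutoff was set so that at most 10% of cells reached it. The shares therefore compare classes, erythroid cells apart, and do not measure how many cells were in S phase. By this gate 7.01% of control and 7.43% of mutant cardiomyocytes passed (48.6% and 50.1% before thinning). The shares were 15.7% and 10.7% for mesenchymal cells (14.4% and 14.2% before thinning), 10.7% and 8.82% for epicardial cells (19.7% and 19.4%) and 15.6% and 14.0% for endothelial cells (26.4% and 31.3%). Thinning left out 414 control and 523 mutant mesenchymal cells and at most 84 cells of any other class and library. Of control erythroid cells, 0 of 150 passed, which allows a share past the gate of up to 2% by a limit of 3 counts and 2.43% by the exact interval. Thinning counted globin, 82.1% of control erythroid UMIs, which left few UMIs for other genes. This share therefore cannot be set beside those of the other classes. The S shares of the genotypes overlapped within their intervals in each class, including mesenchymal cells with 12.01 to 20.1% in the control and 8.55 to 13.1% in the mutant.

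A second gate, added after the first results were seen, took cells with at least 3 thinned UMIs of 22 G2/M genes, which are high when cells prepare to divide. The gates overlapped: 59 of 140 S-gated control cardiomyocytes and 15 of 53 S-gated control mesenchymal cells passed both. The G2/M gate therefore does not part G2 and M from S phase, and its shares do not measure how many cells were in G2 or M. It took 48.3% of control and 48.2% of mutant cardiomyocytes, 56.1% and 45.5% of mesenchymal, 51.0% and 31.9% of endothelial and 30.4% and 23.5% of epicardial cells. For erythroid cells the shares were 14.7% and 40.7%, so the class with the largest summed histone ratio between the libraries also differed in this gate. Their thinned UMIs were again mostly globin, 82.1% and 75.6% of the class totals, and the part of this was not tested. Erythroid cells past the gate were shallow, with a median of 3366 UMIs against 14335.5 in the others in the mutant.

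**Figure D3:**
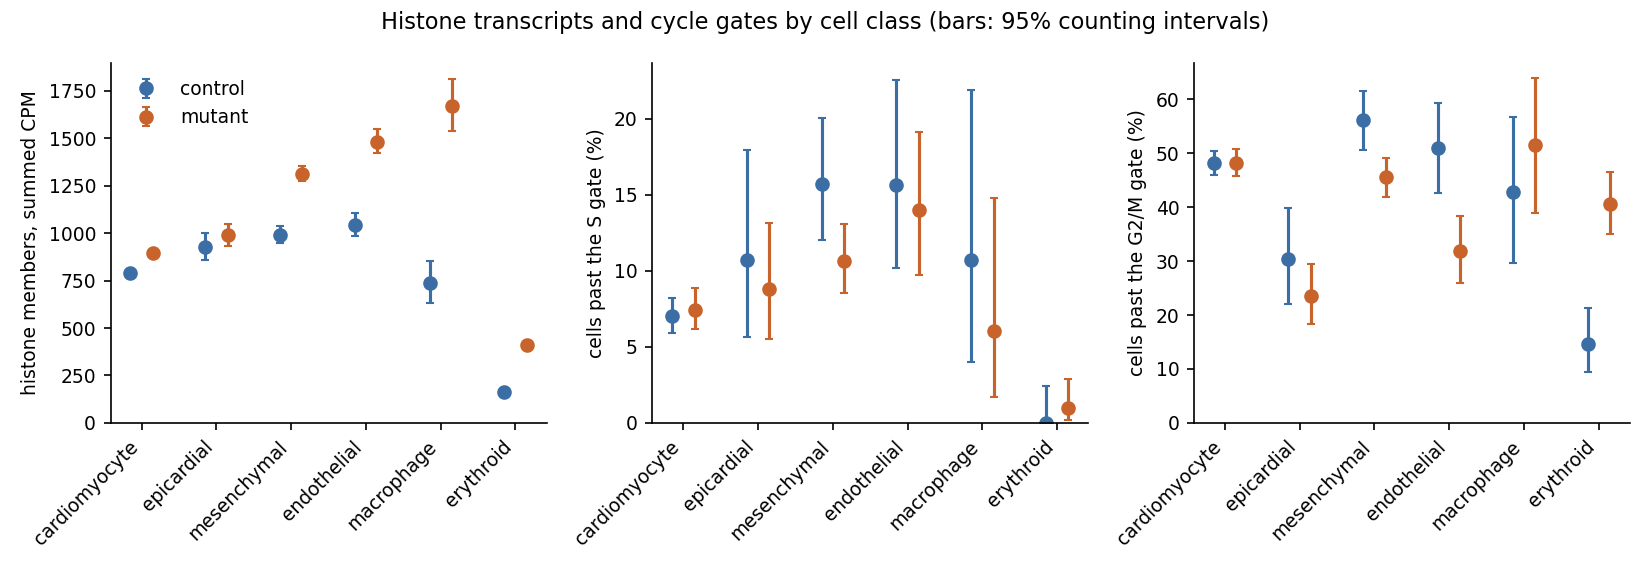
Summed CPM of the 58 members (left), percent of thinned cells past the S gate (middle) and past the G2/M gate (right) for 6 cell classes, control in blue and mutant in orange, with 95% counting intervals. Mutant mesenchymal and endothelial cells lie above control on the left, at 1315 and 1483 CPM, and below it on the right, at 45.5% and 31.9%.

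In cardiomyocytes histone transcripts were higher in cells with more UMIs of the S genes. Control cells with 0, 1, 2 and 3 or more core UMIs stood at 662, 904, 1420 and 1853 CPM, and mutant cells at 760, 1111, 1332 and 2119 CPM. S-gated cells therefore stood at 1526 CPM against 723 CPM in other control cardiomyocytes, a ratio of 2.11 (2.04 to 2.18), and at 1465 against 843 CPM in the mutant, a ratio of 1.74 (1.67 to 1.80). Of the members with at least 50 UMIs in the class, 11 of 30 in the control and 5 of 26 in the mutant were past 1.5-fold higher in S-gated cells. Over all genes 8.36% and 6.64% were past that fold in the same direction. Gated cells were deeper, with a median of 13200 UMIs against 10695 in the control, and the part of depth in the ratio was not tested.

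In mesenchymal cells the libraries did not show the same direction. S-gated control cells stood at 894 CPM against 1295 CPM in other cells, a ratio of 0.690 (0.599 to 0.792), and S-gated mutant cells at 2416 against 1441 CPM, a ratio of 1.68 (1.56 to 1.80). None of 8 members in the control and 3 of 11 in the mutant, Hist1h1b, Hist1h2ap and Hist1h4d, were past 1.5-fold higher, and over all genes 16.5% and 18.0% were. In the control 5 of the 8 members, Hist1h1a, Hist1h1b, Hist1h2bc, Hist1h2bj and Hist1h3e, were past 1.5-fold lower, and in the mutant 0 of 11. In the same control cells 16 of 17 G2/M genes with enough UMIs were past 1.5-fold lower in the S-gated cells, in the mutant 2 of 21, and the part of this in the histone ratio was not tested. A wider S list of 34 genes gave a ratio above 1 in both libraries, log2 0.93 in the control and 1.29 in the mutant, and the core gate on unthinned counts gave 0.079 in the control. In epicardial cells, with 12 control and 21 mutant cells in the gate, the ratio was 0.929 (0.697 to 1.22) and 2.14 (1.84 to 2.48). The wider list turned the control value to 2.09 (1.62 to 2.65).

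In the 4 main classes of both libraries, except control cardiomyocytes, the G2/M ratio of gated to other cells exceeded the S gate ratio. With the wider S list the S ratio was the larger in cardiomyocytes (2.26 and 2.72) and endothelial cells (2.13 and 3.07), control then mutant. In epicardial and mesenchymal cells the G2/M ratio stayed larger. These differences were not tested. Mesenchymal cells past the G2/M gate stood at 1862 CPM in the control and 2604 CPM in the mutant, against 463 and 514 CPM in the others. The ratios were 4.02 (3.53 to 4.60) and 5.06 (4.67 to 5.50), and 7 of 8 and 10 of 11 members were past 1.5-fold higher, against 6.4% and 3.64% of all genes. In cardiomyocytes the ratios were smaller, 1.64 in the control and 2.08 in the mutant. There 9 of 30 and 7 of 26 members were past 1.5-fold higher, against 1.37% and 1.36% of all genes.

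Cells that passed both gates had the highest level in each of the 4 classes of each library. Mesenchymal cells past neither gate stood at 477 CPM in the control and 499.4 CPM in the mutant, cells past the S gate only at 437 and 603 CPM, cells past the G2/M gate only at 1776 and 2340 CPM, and cells past both at 2960 and 4356 CPM. In control cardiomyocytes the 4 levels were 514, 1169, 882 and 1952 CPM, so there the S gate alone went with a higher level than the G2/M gate alone. In mutant cardiomyocytes, at 527, 842, 1087 and 2210 CPM, it did not. Free RNA, summed over all 67 genes with the histone symbols, stood at 598 CPM. Cells past neither gate lay below it in control cardiomyocytes and in control epicardial (392 CPM) and mesenchymal cells. In control endothelial cells, at 680 CPM, they lay above it.

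**Figure D4:**
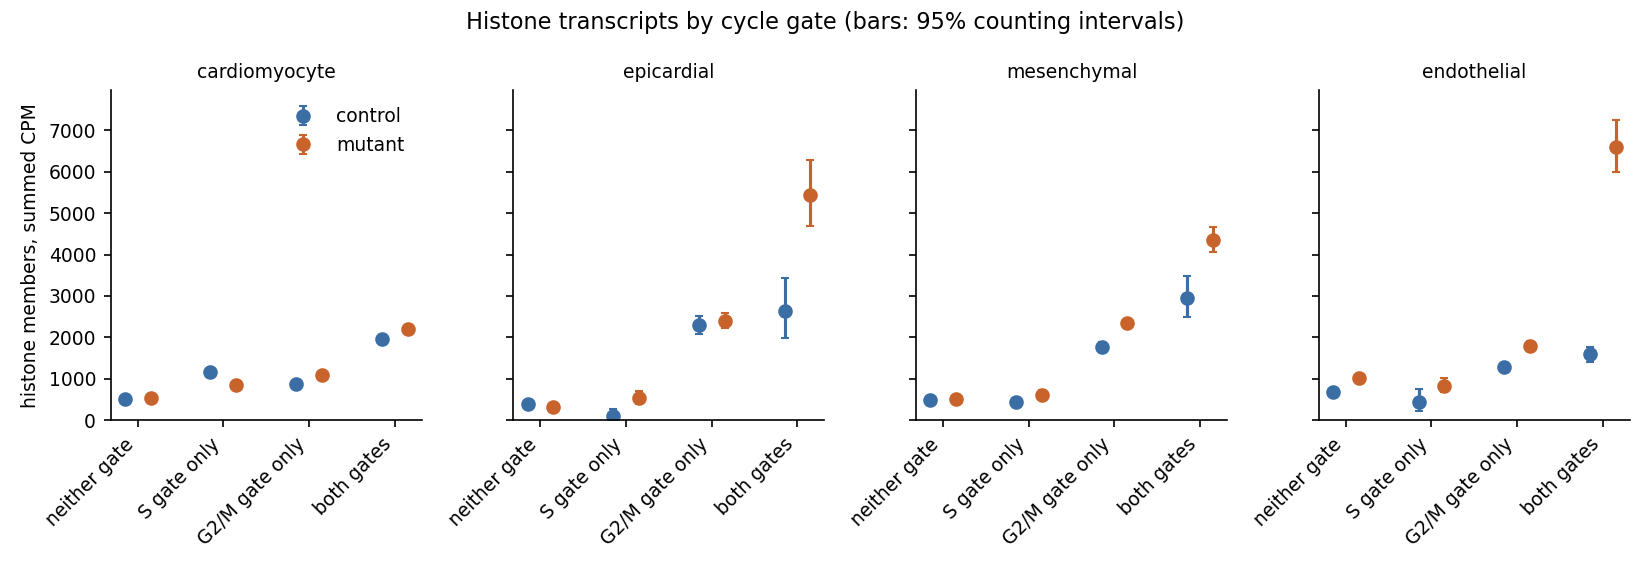
Summed CPM of the 58 members in cells past neither gate, the S gate only, the G2/M gate only or both, for 4 cell classes, control in blue and mutant in orange, with 95% counting intervals. Cells past both gates are highest in each panel, at 1952 and 2210 CPM in cardiomyocytes, and the mutant endothelial point at 6596 CPM comes from 10 cells.

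Members differed in how they followed the gates. Over both libraries and all kept cells, 42 of the 58 members had at least 50 UMIs in gated and other cells together, and 36 of them were higher in S-gated than in other cells, with a median ratio of 1.64. For the G2/M gate 39 of 42 were higher, with a median ratio of 2.32. These pooled ratios also carry differences in class and depth between gated and other cells. The 6 members with the highest S ratio were Hist1h3f at 4.40 (2.58 to 7.26), Hist1h2ai at 3.59 (2.58 to 4.93), Hist1h1d at 3.33 (2.67 to 4.13), Hist1h2ab at 2.83 (2.06 to 3.83), Hist1h2ap at 2.63 (2.53 to 2.74) and Hist1h2bl at 2.45 (1.41 to 4.07). They belong to 4 of the 5 types, and the intervals of all 6 meet those of their neighbours in this order.

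The 6 lowest ratios were those of Hist1h2bc at 0.539 (0.458 to 0.629), Hist3h2a at 0.800 (0.529 to 1.17), Hist1h3d at 0.865 (0.363 to 1.77), Hist1h4i at 0.970 (0.711 to 1.30), Hist1h2af at 0.978 (0.568 to 1.59) and Hist3h2ba at 0.997 (0.730 to 1.33). Only the interval of Hist1h2bc lay wholly below 1. In cardiomyocytes alone Hist1h2bc stood at 28.8 CPM in S-gated and 50.2 CPM in other control cells, and at 18.7 and 33.6 CPM in the mutant. Its G2/M ratio over the pooled classes was 0.824 (0.771 to 0.881). Hist3h2ba, an H2B gene outside the large clusters, had the lowest G2/M ratio, 0.538 (0.452 to 0.638), and in mutant cardiomyocytes stood at 6.75 CPM in G2/M-gated and 17.7 CPM in other cells. By contrast Hist1h2af, near 1 for the S gate, had a G2/M ratio of 5.56 (3.79 to 8.43). Of these genes Hist1h2bc and Hist1h2af had no stem-loop in their annotated transcript. Hist3h2a, Hist3h2ba and Hist1h4i had one, followed by 1643, 169 and 330 further annotated bases with a poly(A) signal near the end, and Hist1h3d had one followed by 752 bases without that signal. Over all members 15 of 58 had the signal.

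**Figure D5:**
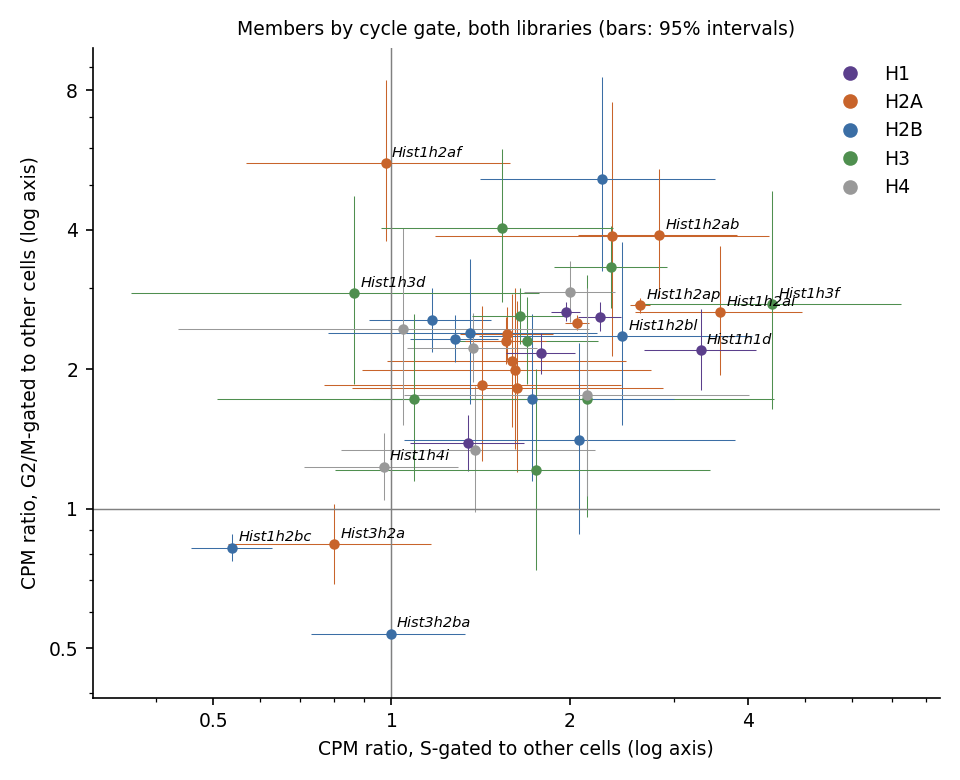
Ratio of CPM in S-gated to other cells (x, log axis) against the ratio in G2/M-gated to other cells (y, log axis) for 42 members over both libraries, coloured by histone type, with 95% counting intervals; grey lines mark a ratio of 1. Hist1h2bc, Hist3h2a and Hist3h2ba are the 3 members at or below 1 on both axes.

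The summed H2B genes were flat in cardiomyocytes, with an S ratio of 1.04 (0.913 to 1.18) in the control and 0.974 (0.829 to 1.14) in the mutant. The summed H2A genes had ratios of 2.39 (2.28 to 2.50) and 1.83 (1.75 to 1.91), H1 genes 2.27 (2.12 to 2.42) and 1.81 (1.69 to 1.95), H3 genes 1.88 and 1.82 and H4 genes 1.65 and 1.47. Hist1h2bc supplied 1534 of the 3119 H2B UMIs of control cardiomyocytes. The H2B sum there mixed both directions. Hist1h2bc had an S ratio of 0.573 (0.447 to 0.724), Hist3h2ba 0.662 (0.336 to 1.18) and Hist1h2bm 1.04 (0.703 to 1.48). Hist1h2bj had 1.51 (1.16 to 1.95), Hist1h2bb 1.97 (1.03 to 3.50), Hist1h2bn 2.17 (1.03 to 4.18) and Hist2h2bb 2.60 (1.26 to 4.93).

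Other genes of the pathway were counted in the same cardiomyocyte cells. Of 22 genes for synthesis and processing of histone mRNA, 20 had enough UMIs, and 8 in the control and 6 in the mutant were past 1.5-fold higher in S-gated cells, with medians of log2 0.52 and 0.41 against 0.15 over all genes in each library. Of all genes 8.36% and 6.64% were past that fold, which is also the share beside the next lists. Slbp, whose product binds the stem-loop, was among them in both libraries, with E2f1, Cdk2, Ccne1 and Ccne2, which act at S-phase entry. Of 22 histone chaperone and import genes, 7 of 21 and 6 of 20 were past that fold, Nasp, Chaf1a, Atrx, Ssrp1 and Set in both. The 11 genes listed as replication-independent variants with polyadenylated mRNA had medians of log2 -0.19 and -0.15 in S-gated cardiomyocytes. Whether each of them makes only such mRNA was not tested. None was past 1.5-fold higher, a count near the share of all genes, and Cenpa was past it lower in both libraries. For the G2/M gate 5 of 10 variant genes in the control and 3 of 10 in the mutant were past 1.5-fold higher, against 1.37% and 1.36% of all genes, H1fx, H2afx and H2afz in both.

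The third comparison, between the genotypes, asked how the levels differed between the heart with and without the floxed Prmt1 alleles. Summed members were at 788 CPM in control and 896 CPM in mutant cardiomyocytes, a ratio of 1.14 (1.12 to 1.16), and at 928 and 988 CPM in epicardial cells, a ratio of 1.06 (0.966 to 1.17). Mesenchymal cells had 991 and 1315 CPM, a ratio of 1.33 (1.26 to 1.40), and endothelial cells 1045 and 1483 CPM, a ratio of 1.42 (1.32 to 1.52). None of these 4 sums was past 1.5-fold. In cells with at least 2000 UMIs, each thinned to that number, the log2 ratio was 0.31 in cardiomyocytes and -0.059 in epicardial cells. It was 0.039 in mesenchymal and -0.14 in endothelial cells, so the direction turned in epicardial and endothelial cells. This setting left out shallower cells, 414 control and 523 mutant mesenchymal cells among them. With all kept cells, macrophages, at 2.27 (1.92 to 2.70), and erythroid cells, at 2.55 (2.27 to 2.88), were past 1.5-fold, from 178 and 355 control UMIs. In erythroid cells the median over all genes was itself shifted by log2 0.40.

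Of members with at least 50 UMIs, 1 of 40 in cardiomyocytes was past 1.5-fold in either direction, against 0.357% of all genes. In epicardial cells it was 0 of 6 against 6.41%, in mesenchymal cells 3 of 16 against 1.90%, and in endothelial cells 3 of 9 against 5.04%. For macrophages the count was 4 of 5 against 16.9% and for erythroid cells 6 of 8 against 28.4%. The median member in cardiomyocytes was at log2 -0.035, where the median of all genes was 0.017, with 11 members above 0 and 29 below. In mesenchymal cells the median member was at log2 0.072 and in endothelial cells at 0.28, against 0.0067 and 0.025 over all genes.

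Hist1h2ap and Hist1h2ae, the genes with an adenine run at the stem-loop shown above, had a larger ratio than the other members together in each of the 6 classes. Together they measured 346 CPM in control and 491 CPM in mutant cardiomyocytes, a ratio of 1.42 (1.38 to 1.46). The other 56 members measured 442 and 406 CPM, a ratio of 0.918 (0.895 to 0.942). In mesenchymal cells the pair went from 316 to 603 CPM, a ratio of 1.91 (1.74 to 2.09), and the others from 675 to 711 CPM, a ratio of 1.05 (0.985 to 1.13). In endothelial cells the ratios were 1.82 (1.62 to 2.04) and 1.19 (1.08 to 1.30), and in epicardial cells 1.28 (1.095 to 1.497) and 0.94 (0.829 to 1.07). The pair thus made up 43.9% of histone UMIs in control and 54.7% in mutant cardiomyocytes, and 31.9% and 45.9% in mesenchymal cells. In macrophages and erythroid cells the other members were also higher in the mutant, with ratios of 1.81 (1.47 to 2.24) and 2.20 (1.94 to 2.51), against 3.37 (2.497 to 4.61) and 4.92 (3.61 to 6.85) for the pair. In erythroid cells the other members supplied more of the difference in CPM, from 139 to 307 against 20.8 to 102 for the pair. Without the pair the direction of the sum turned in cardiomyocytes and epicardial cells. The share of the pair was higher in the mutant in each of the 6 classes. With 1 library per genotype, a difference between the 2 libraries and one between the genotypes cannot be told apart.

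By type, the cardiomyocyte difference had both signs. H2A genes stood at 412 CPM in the control and 543 CPM in the mutant, a ratio of 1.32 (1.29 to 1.35), and H1 genes at 198.6 and 221 CPM, a ratio of 1.11 (1.07 to 1.15). H2B genes stood at 98.7 and 76.2 CPM, a ratio of 0.772 (0.729 to 0.816), H3 genes at 39.9 and 29.7 CPM, a ratio of 0.744 (0.680 to 0.814), and H4 genes at 38.7 and 26.4 CPM, a ratio of 0.681 (0.620 to 0.748). In mesenchymal cells H2A genes had a ratio of 1.71 (1.58 to 1.86) and H1 genes 1.20 (1.09 to 1.33), while the intervals of H2B (0.856 to 1.13), H3 (0.793 to 1.24) and H4 (0.636 to 1.01) held 1.

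Hist2h2ac was lower in the mutant in the 4 main classes. It measured 22.5 CPM (711 UMIs) in control and 9.48 CPM (256 UMIs) in mutant cardiomyocytes, a ratio of 0.421 (0.364 to 0.487), the 1 member past 1.5-fold in that class. In mesenchymal cells it was at 20.1 and 5.55 CPM, a ratio of 0.275 (0.152 to 0.485). With under 50 UMIs it was also lower in epicardial cells (32.3 and 5.195 CPM) and endothelial cells (17.5 and 4.75 CPM). In macrophages and erythroid cells, with at most 19 UMIs a library, it was higher in the mutant. Hist1h4i, an H4 gene, was at 9.15 and 3.41 CPM in cardiomyocytes, a ratio of 0.372 (0.291 to 0.472), which was within 1.5-fold once 10 CPM was added to both values, as was done for all calls. It was lower in the mutant in each of the 6 classes. In endothelial cells Hist1h1b, at 115 and 222 CPM, a ratio of 1.92 (1.57 to 2.37), was past 1.5-fold with Hist1h2ap (251 and 480.2 CPM) and Hist1h2ae (136 and 223 CPM).

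The genotype difference was also compared within cycle states. In cells past neither gate the mutant to control ratio was 1.03 (0.989 to 1.06) in cardiomyocytes and 1.05 (0.882 to 1.24) in mesenchymal cells. It was 1.51 (1.30 to 1.75) in endothelial and 0.776 (0.624 to 0.967) in epicardial cells, both from summed UMIs. With equal weight per cell both directions turned. The means were then 752 CPM in control and 669 CPM in mutant endothelial cells, and 283 and 298 CPM in epicardial cells. For cardiomyocytes these means were 377 and 434 CPM, and for mesenchymal cells 520 and 507 CPM. Among cardiomyocytes and mesenchymal cells past the G2/M gate only it was 1.23 (1.21 to 1.26) and 1.32 (1.23 to 1.41), and among those past both gates 1.13 (1.07 to 1.20) and 1.47 (1.23 to 1.77). Among endothelial and epicardial cells past the G2/M gate only it was 1.40 (1.25 to 1.56) and 1.05 (0.928 to 1.18). Among cardiomyocytes past the S gate only it was 0.721 (0.667 to 0.779). In endothelial cells past both gates it was 4.16 (3.58 to 4.84), from 15 control and 10 mutant cells. Without the 5 cells of each library with the most histone UMIs, the endothelial sums were 980 and 1012 CPM, a ratio of 1.03, against 1.42 with them. The epicardial ratio without such cells was 0.984, which turned its direction, the mesenchymal ratio 1.28 and the cardiomyocyte ratio 1.13.

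The lists of cycle and pathway genes were also compared between the genotypes. In cardiomyocytes and mesenchymal cells, none of the tested genes of the S-phase core, the wider S list, the G2/M list, the processing list, the chaperone list or the variant list was past 1.5-fold, where 0.357% and 1.9% of all genes were. Their medians lay between log2 -0.13 and 0.058 in both classes, the 2 lowest being those of the G2/M list. In endothelial cells 3 of 17 G2/M genes were past 1.5-fold lower and 3 of 26 genes of the wider S list past it higher, where 5.04% of all genes were past it in either direction. Whether the lists differed from the members was not tested.

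Over the 12 class and library values genes whose log2(CPM + 10) was most like that of the summed members included Smc2, a condensin subunit (r = 0.97), Dync1li1, Anp32b, Eif5, Rpl8, Hax1, Eif2s1, Eif2s3x and Hmgb2, all at r = 0.96 or 0.97 after rounding, among 9398 genes ranked. These 12 points include 2 erythroid values that are low for most genes. The summed S-phase core had r = 0.91 with the members over 12 points and r = 0.60 over the 10 without erythroid cells, and the G2/M list r = 0.90 and r = 0.092. The points share libraries and depth, and the coefficients are a description only.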

How the data were processed

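Each deposited matrix holds raw UMI counts for every gene in every barcode. Its software version, Cell Ranger 3.0.2, is named per the file headers, and Seurat appears in the submitters' processing notes. Not given in the sources used here: build, annotation and how reads matching several genes were handled. The control matrix listed 6794880 barcodes and the mutant matrix 7181, each with at least 500 UMIs, so the same minimums were applied to both here. Cells needed at least 3 UMIs of 2 or more genes of a class's markers and a set share of their UMIs from them. Cells in several classes (382 control, 541 mutant) or in none (257, 239) were left out, except that overlaps of mesenchymal with epicardial or vessel wall markers went to the latter. The automatic doublet threshold marked 0 cells and so did not work; the top 6% of scores were left out as an alternative.

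UMIs were summed per class and library and divided by the class total (CPM). Calls use log2 ratios of CPM + 10, a minimum of 50 UMIs and 1.5-fold; intervals on ratios are exact conditional binomial, on levels exact Poisson and on shares Clopper-Pearson, all for counting error. The S gate cutoff was the lowest that at most 10% of gated, thinned cells reached. Ratios were tested on simulated Poisson counts with 200 changed genes. True 2-fold changes were called for 32% of genes in cardiomyocytes and 84% in mesenchymal cells. For true 0.5-fold changes the shares were 28% and 72%. An uncalled gene can therefore still differ, and counts of calls are not alike between these classes. Named were the 15 members with the most UMIs, the 6 highest and lowest S ratios among members with 50 UMIs, up to 6 members a class past 1.5-fold between genotypes, and the 10 genes most alike among those with 200 UMIs, 1 of which is not reported here. The members and lists were chosen with earlier results of these data known. Stem-loops were searched in GENCODE M21 and promoters in RefSeq GRCm38.p6. Python 3.11.15, numpy 2.4.6, scipy 1.17.1, pandas 2.3.3, scikit-learn 1.9.0, igraph 0.11.9, leidenalg 0.10.2 and matplotlib 3.10.9 were used.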

Additional observations from a re-analysis of the deposited data

Results flagged for a closer look

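The histone level of S-gated against other cells had opposite signs in the libraries for 2 classes. In mesenchymal cells it was log2 -0.53 in the control (53 gated cells) and 0.74 in the mutant (81 gated cells), and in epicardial cells -0.10 (12 gated cells) and 1.09 (21 gated cells). The difference was not tested, since each genotype has 1 library, and its cause was not tested. With the wider S list the sign was the same in both libraries, at 0.93 and 1.29 in mesenchymal and 1.05 and 1.95 in epicardial cells. On unthinned counts the 8-gene gate gave 0.079 in control mesenchymal cells. Outside the kept cells, the control barcodes with at most 100 UMIs held 934 UMIs of all 67 genes with the histone symbols, 598 CPM. What this level contributes to the kept cells was not tested.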

How the results depend on the processing

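No paired analysis was possible because each genotype has 1 library. Cells with at least 500 UMIs and 200 genes, members without a minimum, and totals without haemoglobin, mitochondrial and ribosomal genes left each genotype and S ratio of the 4 main classes within its counting interval. The other ratios that left it follow as log2 values. For mutant against control, in the order cardiomyocyte, epicardial, mesenchymal and endothelial (main 0.18, 0.089, 0.40 and 0.50), thinned cells gave 0.31, -0.059, 0.039 and -0.14, equal weight per cell 0.27, 0.30, 0.21 and 0.088, and the sum without both leading members, an added setting, -0.12, -0.088, 0.075 and 0.24. Clusters in place of gates gave 0.22 in cardiomyocytes, 0.48 in epicardial and 0.64 in endothelial cells. Without Hist1h2ap alone, cardiomyocytes gave 0.069, mesenchymal 0.25 and endothelial cells 0.33. Cardiomyocytes gave 0.14 with median-of-ratios scaling and 0.10 without the top doublet scores, and endothelial cells 0.046 without their 5 cells with the most histone UMIs, also added.

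For S-gated against other cells, control then mutant (main 1.07 and 0.79 in cardiomyocytes, 0.51 and 1.11 in endothelial cells), the wider S list gave 1.17 and 1.43 in cardiomyocytes, 1.05 and 1.95 in epicardial, 0.93 and 1.29 in mesenchymal and 1.08 and 1.61 in endothelial cells. The G2/M gate in its place, added, gave 0.71 and 1.05, 2.64 and 3.02, 1.99 and 2.32, and 1.03 in control endothelial cells. A cutoff 1 UMI higher gave 1.26 and 1.26 in cardiomyocytes, 1.89 in mutant epicardial, -1.0 and 0.88 in mesenchymal and 0.82 in mutant endothelial cells; control epicardial cells had too few. Unthinned gates gave 1.54 and 1.61 in cardiomyocytes, 0.079 in control mesenchymal and 1.32 in mutant endothelial cells. Equal weight gave 1.15 and 1.13 in cardiomyocytes, 0.47 in mutant epicardial, -0.16 and 0.35 in mesenchymal and 0.91 in mutant endothelial cells. Without Hist1h2ap the values were 0.96 and 0.70 in cardiomyocytes, -0.73 in control epicardial, 0.32 in mutant mesenchymal and 0.31 and 0.37 in endothelial cells. Clusters gave 0.30 and 0.14 in epicardial and 0.74 in control endothelial cells, and mutant cardiomyocytes without the top doublet scores 0.67. The causes were not tested. Of the levels, shares and smaller classes, 107 values stayed within the interval and 83 left it. Classes with few gated cells limit the S comparison.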
